A study of Mus musculus with 8 samples.

Results

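The genes of cholesterol synthesis, uptake and efflux were followed in CD11b+ cells of the mouse colonic lamina propria that carried CCR2 or CD64, sorted and profiled cell by cell. The set was a list of 35 genes by name, and all 35 were found among the 16889 genes of the count table. It held 18 enzymes of sterol synthesis, 5 genes that control SREBP, 7 genes of uptake, lysosomal release, transport and esterification, and 5 genes of the liver X receptor (LXR) and efflux arm. All 35 passed the filter on low counts over all cells. The cells came from 8 female CD98hcΔCX3CR1 mice, which carry a floxed CD98hc (Slc3a2) gene and a Cre recombinase that is made under Cx3cr1 and is active only with tamoxifen. The 4 cKO mice, numbered 5 to 8, had 100 µl of tamoxifen at 20 mg/ml each day over 5 days by the intraperitoneal route. The 4 control mice, 1 to 4, carried the same alleles and had corn oil in its place, and all cells were taken on day 7. Since no control mouse had tamoxifen, the deletion and the drug itself cannot be told apart.

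A cell makes cholesterol from acetyl-CoA through the mevalonate steps, the joining of farnesyl units to squalene, and a run of reactions that turn squalene into sterols. SREBP-2, the product of Srebf2, is released from the endoplasmic reticulum by SCAP when sterols are scarce and switches these enzymes on together, while INSIG proteins hold it back when sterols are plentiful. LXRα and LXRβ, made by Nr1h3 and Nr1h2, sense oxidised sterols and drive the efflux transporters ABCA1 and ABCG1 and the lipoprotein APOE, a programme well known in macrophages that take up dead cells.

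The cells kept numbered 85 to 724 per control mouse and 83 to 484 per cKO mouse, with 589135 to 3762314 and 497531 to 2486236 unique molecular identifiers (UMIs, counted transcripts). Control mouse 3 and cKO mouse 5 were the shallowest, and a doublet caller marked 24 of the 83 cells of cKO mouse 5. The level of Slc3a2 was 345, 252, 234 and 473 CPM (UMIs scaled to an equal total for each mouse) in the control mice and 296, 370.0, 346 and 315 in the cKO mice, with a log2 fold change of 0.02 and an adjusted p of 0.975 in edgeR's quasi-likelihood test. A 3′ tag may lie outside the excised part, so this level does not check the deletion, and the groups are named as labelled. The sorted cells were not of 1 kind. Cells grouped by marker genes as dendritic cell-like made up 19.8, 27.1, 24.7 and 21.9% of the control mice and 8.43, 7.45, 4.55 and 8.53% of the cKO mice, and monocyte-like cells 4.71 to 8.56% and 13.2 to 20.5%. Sums over all cells of a mouse therefore mix types, and fewer cells of a type and less RNA per cell cannot be told apart in them.

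The first comparison asked whether the genes differed between cKO and control mice when the UMIs of all cells of a mouse were summed. Of the 35 genes, 6 were lower and 4 were higher in cKO mice at an adjusted p below 0.05 (edgeR's quasi-likelihood test). Over all 11387 genes tested, 4.43% passed, 1.55% lower and 2.87% higher. The 6 that fell were all enzymes of sterol synthesis, namely Hmgcs1, Idi1, Fdps, Sqle, Cyp51 and Msmo1. The 4 that rose were Npc2, Soat1, Nr1h3 and Abcg1, genes of lysosomal release, esterification, the LXR and efflux. The median log2 fold change was -0.46 over the 35 genes and -0.70 over the 18 synthesis enzymes, beside -0.03 over all genes tested. Of the synthesis enzymes, 17 of 18 were below 0, beside 52.7% of all genes, and Ebp was the exception at 0.11.

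**Figure D1:**
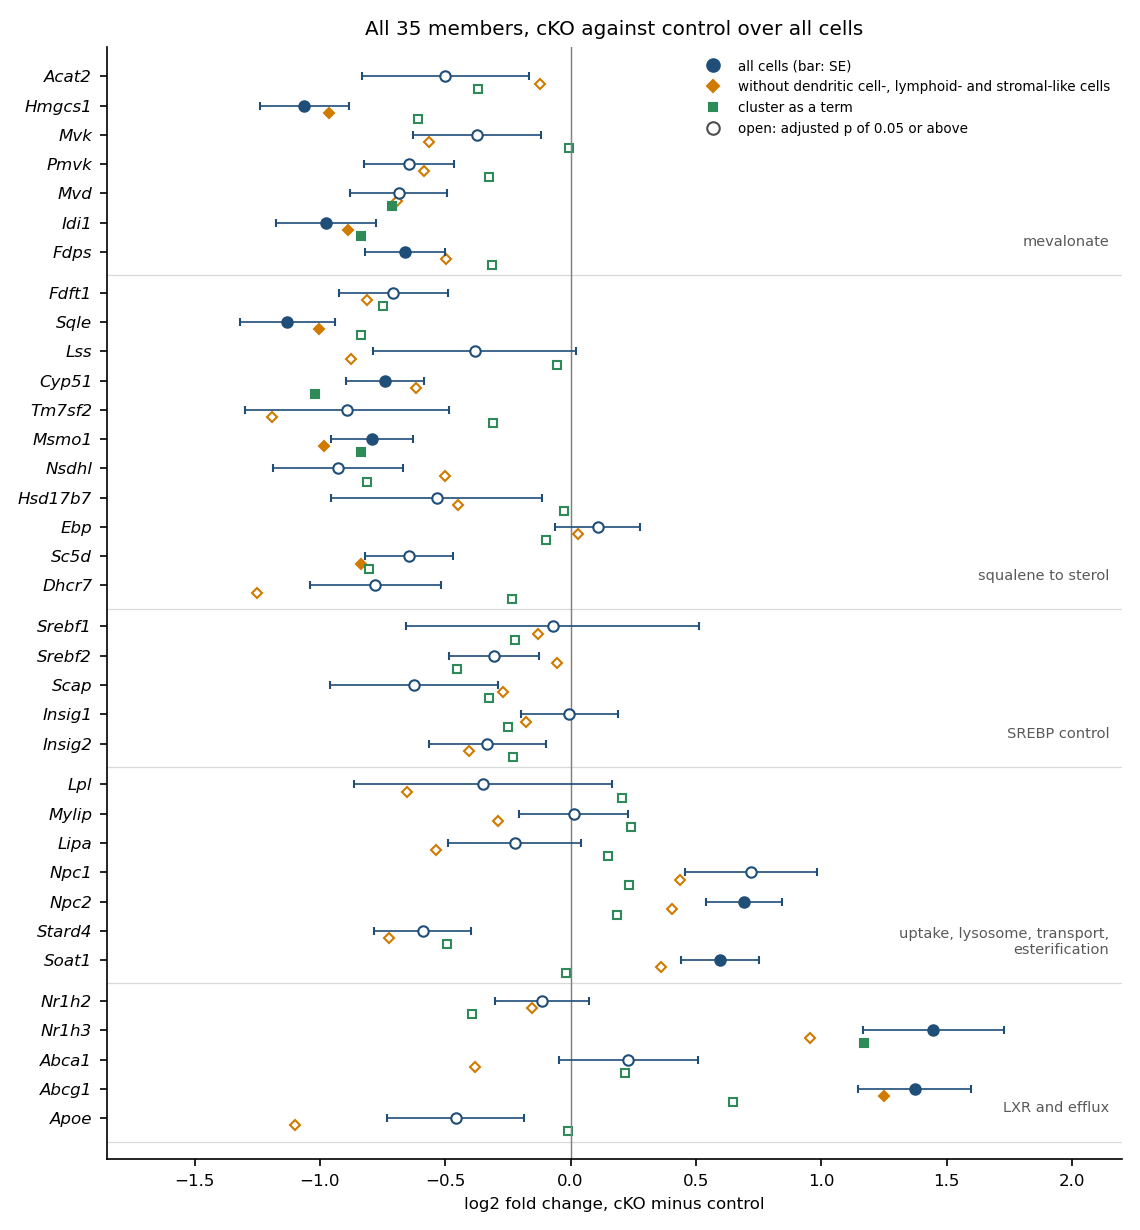
Log2 fold change of each of the 35 genes, cKO against control, over all cells summed per mouse, grouped by role, with bars for the standard error, beside the values without dendritic cell-like, lymphoid-like and stromal-like cells and with cluster as a term (open symbols, not called). The 6 genes that fell lie among the synthesis enzymes, between -0.66 and -1.13, and Nr1h3 and Abcg1 lie farthest to the right, at 1.45 and 1.37.

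Before the values of the synthesis enzymes, their promoters are shown, since SREBP acts on these genes through short sequences near the start. The 4 enzymes that fell and have an entry in the RefSeq promoter table (GRCm38.p6, 300 bases, most of them before the start) are printed 5′ to 3′ on the strand of the gene. Capitals mark matches, on either strand, to TCACNCCAC, a form of the sterol regulatory element, to the CCAAT box (CCAAT), which NF-Y binds, and to the GC box (GGGCGG), which Sp1 binds. Hmgcs1 lies at chr13:119690101-119690400 on the plus strand, Idi1 at chr13:8885356-8885655 on the plus strand, Cyp51 at chr5:4104648-4104947 on the minus strand and Msmo1 at chr8:64733529-64733828 on the minus strand.
Hmgcs1: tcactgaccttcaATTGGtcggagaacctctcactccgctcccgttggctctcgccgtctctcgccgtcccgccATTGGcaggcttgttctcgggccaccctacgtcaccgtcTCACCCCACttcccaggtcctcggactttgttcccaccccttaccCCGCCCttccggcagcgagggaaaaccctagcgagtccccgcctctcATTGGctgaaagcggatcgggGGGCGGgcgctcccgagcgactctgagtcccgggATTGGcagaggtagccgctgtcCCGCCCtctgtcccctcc
Idi1: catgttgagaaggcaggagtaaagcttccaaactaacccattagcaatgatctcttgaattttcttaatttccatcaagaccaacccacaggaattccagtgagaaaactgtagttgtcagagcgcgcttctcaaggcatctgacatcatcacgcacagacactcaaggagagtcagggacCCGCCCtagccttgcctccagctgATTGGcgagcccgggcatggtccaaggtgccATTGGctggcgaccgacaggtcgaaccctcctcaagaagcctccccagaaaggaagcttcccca
Cyp51: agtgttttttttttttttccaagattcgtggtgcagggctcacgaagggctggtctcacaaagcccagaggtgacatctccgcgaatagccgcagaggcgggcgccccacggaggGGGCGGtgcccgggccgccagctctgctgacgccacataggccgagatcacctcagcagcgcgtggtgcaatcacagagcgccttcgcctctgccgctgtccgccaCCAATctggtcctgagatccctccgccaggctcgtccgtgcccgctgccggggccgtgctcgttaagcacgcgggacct
Msmo1: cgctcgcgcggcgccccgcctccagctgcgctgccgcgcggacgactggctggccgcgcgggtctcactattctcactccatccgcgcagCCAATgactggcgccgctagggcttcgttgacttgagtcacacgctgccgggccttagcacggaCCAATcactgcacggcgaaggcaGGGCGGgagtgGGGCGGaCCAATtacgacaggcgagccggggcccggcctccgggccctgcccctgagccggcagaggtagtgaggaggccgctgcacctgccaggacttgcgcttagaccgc

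The Hmgcs1 window held 1 match to TCACNCCAC, 137 bases before the start, with 4 CCAAT boxes and 3 GC boxes. Msmo1 held 3 CCAAT boxes and 2 GC boxes, Idi1 2 and 1, and Cyp51 1 and 1. Of the 28 genes of the set with an entry, Hmgcs1 alone held TCACNCCAC, a run found in 1.24% of all 32851 promoters of the table. CCAAT was present for 22 of the 28 genes and in 37.4% of all promoters, and GGGCGG for 24 of the 28 and in 35.7%. Some genes have several promoters in the table, so counted per promoter the shares were 59% and 71.8% of 39. A match describes these letters in this window and does not show that a factor binds there. Fdps, Sqle, Fdft1, Npc1, Stard4, Lpl and Abcg1 had no entry.

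Among the 7 mevalonate genes, Hmgcs1, Idi1 and Fdps fell. Hmgcs1 (ENSMUSG00000093930, chromosome 13, 119690379 to 119708260, plus strand of GRCm38) encodes the cytosolic HMG-CoA synthase, which makes the substrate of the rate-limiting step. Its level was 91.99, 104, 68.2 and 71.4 CPM in control mice 1 to 4 and 32.7, 37.6, 43.98 and 45.02 CPM in cKO mice 5 to 8, scaled by edgeR's TMM factors as are all values per mouse over all cells. Every cKO mouse was below every control mouse, with means of 83.9 ± 17.02 against 39.8 ± 5.79 (SD, n = 4 and 4) and a log2 fold change of -1.06 ± 0.18, the error of all fold changes being the standard error (adjusted p = 0.00513). Hmgcs1 was called also when any 1 of the 8 mice was left out.

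Idi1 (ENSMUSG00000058258, chromosome 13, 8885501 to 8892451, plus strand) encodes the isomerase that supplies dimethylallyl diphosphate for the building of isoprenoid chains. It stood at 87.1, 93.7, 101 and 83.3 CPM in the control mice and 30.6, 36.3, 46.1 and 64.6 CPM in the cKO mice. The groups did not overlap, although cKO mouse 8 came nearest to the controls, and the log2 fold change was -0.98 ± 0.20 with an adjusted p of 0.0146. Without cKO mouse 6 the adjusted p was 0.0517. Fdps (ENSMUSG00000059743, chromosome 3, 89093588 to 89101959, minus strand) encodes the synthase of farnesyl diphosphate, where the path to sterols parts from that to other isoprenoids. Its values were 186, 209.6, 183 and 174 CPM in control mice against 93.9, 129.6, 103 and 146 CPM in cKO mice. These did not overlap either, and the log2 fold change was -0.66 ± 0.16 (adjusted p = 0.0323). This call was lost without control mouse 1 or 2 or cKO mouse 5, 6 or 7, with an adjusted p of up to 0.119.

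The other 4 mevalonate genes did not pass. Pmvk and Mvd, which encode the kinase and decarboxylase after mevalonate kinase, had log2 fold changes of -0.64 ± 0.18 and -0.69 ± 0.19, with adjusted p of 0.0548 and 0.0602. In both genes every cKO mouse lay below every control mouse, with Pmvk at 76.3 to 83.6 CPM in control mice and 30.6 to 60.8 CPM in cKO mice. Mvk, the mevalonate kinase gene, and Acat2, which encodes a thiolase at the entry of the path, gave -0.37 and -0.50 with overlapping groups.

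Of the 11 genes from squalene to sterol, Sqle, Cyp51 and Msmo1 fell. Sqle (ENSMUSG00000022351, chromosome 15, 59315077 to 59331192, plus strand) encodes squalene epoxidase, the first oxygen-dependent step. Its level was 53.8, 54.1, 40.9 and 41.00 CPM in control mice and 22.5, 21.3, 18.1 and 26.3 CPM in cKO mice. The highest cKO mouse stayed below the lowest control mouse, the log2 fold change was -1.13 ± 0.19 (adjusted p = 0.00495), and the call held without any 1 mouse. Cyp51 (ENSMUSG00000001467, chromosome 5, 4081145 to 4104746, minus strand), the lanosterol 14α-demethylase gene, was at 76.6, 87.04, 69.9 and 83.9 CPM and 49.00, 38.8, 52.2 and 51.3 CPM in the same order. These groups too were apart, with a log2 fold change of -0.74 ± 0.16 and an adjusted p of 0.0165, which rose to as much as 0.0707 without control mouse 1 or 2 or cKO mouse 6. Msmo1 (ENSMUSG00000031604, chromosome 8, 64718139 to 64733792, minus strand) encodes the methylsterol monooxygenase that starts the removal of methyl groups from the sterol ring. Control mice had 132, 107, 92.1 and 97.5 CPM and cKO mice 55.1, 55.1, 72.00 and 65.1 CPM. No cKO mouse reached a control mouse, and the log2 fold change was -0.79 ± 0.16 (adjusted p = 0.0154), with the call lost without control mouse 1 or cKO mouse 6 or 8 (adjusted p of up to 0.0712).

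**Figure D2:**
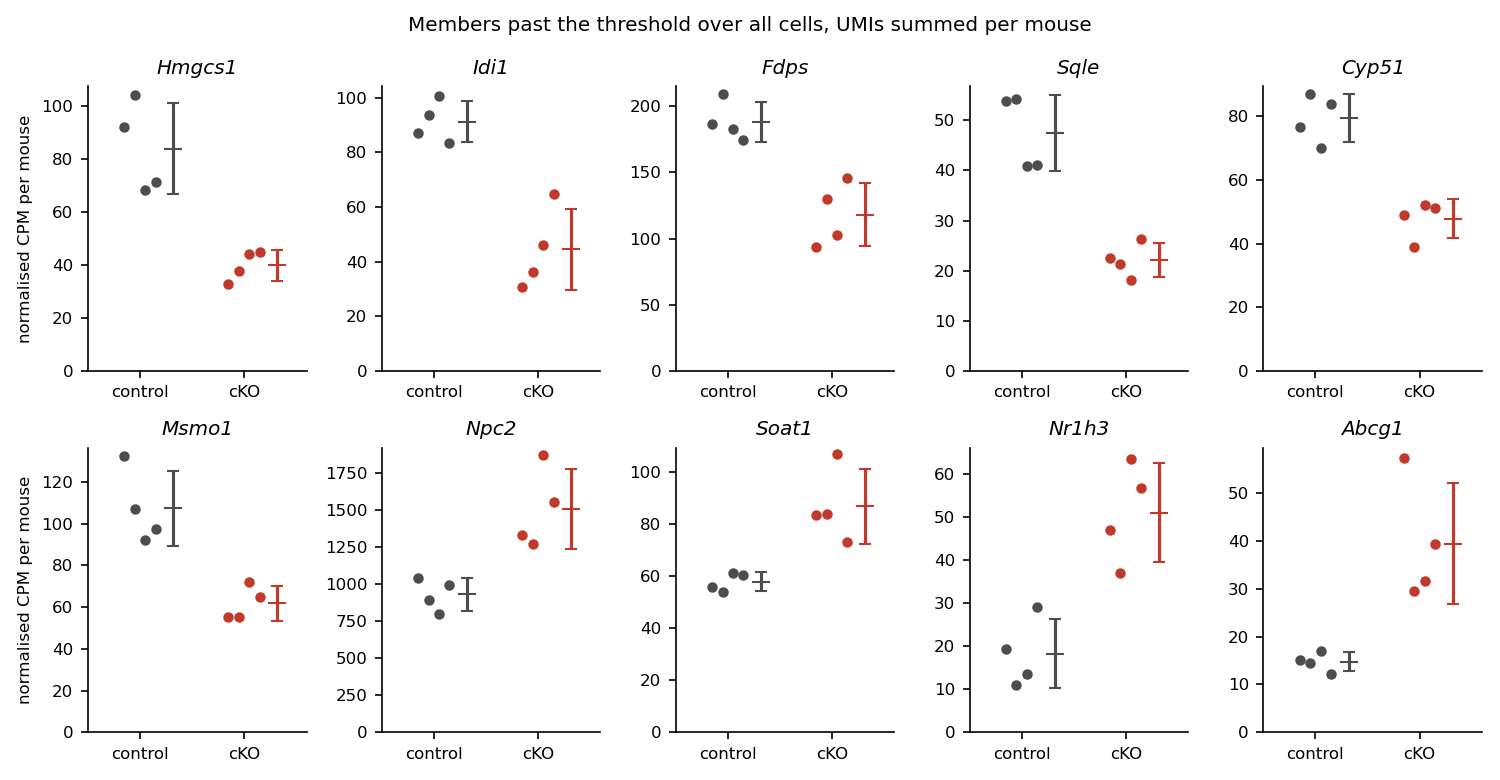
Normalised CPM of the 10 genes that passed the threshold, a panel per gene, with a point per mouse and the group mean. In each panel the 4 control and 4 cKO points do not overlap, with Hmgcs1 at 68.2 to 104 against 32.7 to 45.02 CPM and Abcg1 at 12.3 to 17.1 against 29.4 to 57.2 CPM.

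The remaining 8 genes of this run were not called. Fdft1, the squalene synthase gene, and Sc5d, which encodes a sterol desaturase, had no overlap between groups at log2 fold changes of -0.71 and -0.64 (adjusted p = 0.0828 and 0.0536). For Nsdhl, the dehydrogenase that works after Msmo1, it was -0.93 (adjusted p = 0.0567), and for Dhcr7, which encodes a reductase at the end of the path, -0.78 (adjusted p = 0.111). Lss, Tm7sf2 and Hsd17b7 were sparse, with 84 to 91 UMIs each over all mice, and gave -0.38, -0.89 and -0.53. Ebp, the sterol isomerase gene, was the single synthesis enzyme above 0, at 83.5, 72.8, 64.8 and 88.1 CPM in control mice and 59.2, 83.3, 95.7 and 92.3 CPM in cKO mice. Its groups overlapped, with a log2 fold change of 0.11 ± 0.17 and an adjusted p of 0.773.

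Over the whole set, 11 genes had every cKO mouse below every control mouse and 5 had every cKO mouse above. Among all genes tested these shares were 6.11% below and 5.85% above. The 11 were 10 synthesis enzymes and Stard4, and the 5 were Npc1, Npc2, Soat1, Nr1h3 and Abcg1. The other 19 overlapped. Summed over the 18 enzymes, the level was 1036, 1043, 889 and 928 CPM in the control mice and 468, 607, 632 and 692 CPM in the cKO mice, which gave means of 974 ± 77.3 and 600 ± 95.1 CPM (SD, n = 4 and 4).

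None of the 5 genes that control SREBP passed. Srebf2 gave 37.2, 38.7, 29.00 and 28.4 CPM in control mice and 32.7, 25.04, 28.03 and 26.3 CPM in cKO mice. The groups overlapped, and the log2 fold change was -0.31 ± 0.18 (adjusted p = 0.377). Insig1, itself a target of SREBP, was at 96.9, 81.8, 106 and 54.6 CPM against 83.7, 87.02, 90.1 and 71.8 CPM. Its overlapping groups gave a log2 fold change of -0.006 with a standard error of 0.19 (adjusted p = 0.995). Srebf1, which encodes the form of SREBP tied mainly to fatty acid genes, Scap and Insig2 had log2 fold changes of -0.07, -0.62 and -0.33, with adjusted p of 0.321 or more for the 5 genes. None of the 5 had an unadjusted p below 0.05 in edgeR's test, and DESeq2 called none of them.

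Of the 7 genes of uptake, lysosome, transport and esterification, Npc2 and Soat1 rose. Npc2 (ENSMUSG00000021242, chromosome 12, 84754562 to 84773152, minus strand) encodes a small protein that carries cholesterol out of the lysosome lumen. Its level was 1047, 893, 800.1 and 995 CPM in control mice and 1331, 1273, 1872 and 1560 CPM in cKO mice. Every cKO mouse was above every control mouse, with a log2 fold change of 0.69 ± 0.15 and an adjusted p of 0.0196, and the call was lost without control mouse 2 or cKO mouse 7 or 8 (adjusted p of up to 0.0785). Npc1, its partner in the lysosome membrane, was at 5.12 to 14.2 CPM in control mice and 14.3 to 19.6 CPM in cKO mice. These ranges do not overlap by a narrow margin, and at 0.72 ± 0.26 the gene was not called (adjusted p = 0.141).

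Soat1 (ENSMUSG00000026600, chromosome 1, 156424525 to 156474331, minus strand) encodes the acyltransferase that turns cholesterol into esters for storage in droplets. Control mice had 55.9, 53.9, 61.4 and 60.7 CPM and cKO mice 83.7, 83.9, 107 and 73.1 CPM. The groups were apart at a log2 fold change of 0.60 ± 0.16 (adjusted p = 0.0462), but the adjusted p was 0.0528 to 0.16 when any 1 of the 8 mice was left out, so the call rests on all of them. Stard4, a sterol carrier and SREBP target, was lower without overlap and not called (-0.59 ± 0.19, adjusted p = 0.103). Lipa, the lysosomal acid lipase gene, Lpl, the lipoprotein lipase gene, and Mylip, which encodes a ligase that degrades lipoprotein receptors, had log2 fold changes of -0.22, -0.35 and 0.01 with overlapping groups.

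Nr1h3 and Abcg1 rose among the 5 genes of the LXR and efflux. Nr1h3 (ENSMUSG00000002108, chromosome 2, 91184061 to 91202834, minus strand) encodes LXRα. It was counted at 19.2, 11.1, 13.6 and 29.1 CPM in control mice and 46.96, 36.9, 63.4 and 56.6 CPM in cKO mice. The lowest cKO mouse lay above the highest control mouse, the means were 18.2 ± 7.97 against 50.97 ± 11.5 (SD, n = 4 and 4), and the log2 fold change was 1.45 ± 0.28 (adjusted p = 0.0134, and up to 0.053 without control mouse 1 or cKO mouse 7). Abcg1 (ENSMUSG00000024030, chromosome 17, 31057675 to 31117988, plus strand), an efflux transporter and LXR target, was at 15.1, 14.6, 17.1 and 12.3 CPM and 57.2, 29.4, 31.5 and 39.2 CPM. It was higher in each cKO mouse, most of all in mouse 5, with a log2 fold change of 1.37 ± 0.22 (adjusted p = 0.00412), and stayed called without any 1 mouse.

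The other 3 genes of this arm were not called. Abca1, the transporter that loads cholesterol onto lipid-poor particles, stood at 17.4, 24.7, 15.4 and 12.6 CPM in control mice and 16.3, 13.1, 28.9 and 22.3 CPM in cKO mice. Its groups overlapped (0.23 ± 0.28, adjusted p = 0.692). Apoe was at 11516, 13590, 8197 and 5943 CPM against 10089, 6509, 5762 and 6207 CPM. That spread within the control mice alone was wider than the difference between the means, and Apoe was not called (-0.46 ± 0.27, adjusted p = 0.401). Nr1h2, the LXRβ gene, gave -0.11 (adjusted p = 0.788).

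Leaving out 1 mouse moved the number of genes called from 10 to between 5 and 11. It was 5 without control mouse 1 or cKO mouse 6, and 6 without control mouse 2 or cKO mouse 7. Without the cells marked as doublets 6 genes were called.

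Of 51 other genes of sterol and fatty acid metabolism on a separate list, 45 were tested over all cells, and 2 were called. That count is close to the share called over all 11387 genes tested, 4.43%. Cyp27a1, which encodes a mitochondrial sterol 27-hydroxylase, had 37.9, 42.2, 66.5 and 33.9 CPM in control mice and 32.7, 23.2, 17.7 and 22.7 CPM in cKO mice. It fell without overlap (-0.91 ± 0.24, adjusted p = 0.0443). Plin2, the coat protein of lipid droplets, had 290.1, 229, 263 and 357 CPM against 372, 436, 678 and 499 CPM and rose (0.80 ± 0.19, adjusted p = 0.0305). No gene of the list was called without control mouse 1, 2 or 3, without cKO mouse 7 or 8, or without the cells marked as doublets, Cyp27a1 alone was called without the dendritic cell-like, lymphoid-like and stromal-like cells, Olr1 alone without cKO mouse 6, and 5 genes without control mouse 4. DESeq2 called 4, the same 2 with Msr1 and Olr1, a pair of scavenger receptors. None of the 11 fatty acid genes driven by SREBP, such as Fasn and Scd2, was called, with 10 of 11 below 0, a median of -0.65 and 2 with an unadjusted p below 0.05. The 7 genes of SREBP processing (median -0.11), 6 other LXR targets (0.18), 5 genes of lipoprotein uptake (0.53) and 3 of the isoprenoid branch (-0.28) also had none called, with 0, 0, 4 and 0 of them at an unadjusted p below 0.05.

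These differences over all cells went along with a shift in the kinds of cell. The summed level of 8 dendritic cell markers was 676 to 796 CPM in control mice and 166 to 310 CPM in cKO mice, with all 8 detected. That of 8 monocyte markers was 1609 to 3141 and 7097 to 10985 CPM, and that of 14 macrophage markers 5293 to 8866 and 4521 to 6023 CPM. Plac8 (means 1380 and 4518 CPM) and Ly6c2 (181 and 1926 CPM) rose most in the monocyte sum. Each monocyte marker had a higher mean in cKO mice, but Ccr2 (373 and 405 CPM) and F13a1 overlapped. Of the macrophage markers, Mertk and Cd72 had higher means in cKO mice, Mertk without overlap, and the rest had lower means. When the dendritic cell-like, lymphoid-like and stromal-like cells were left out, 6 genes of the set were called, with Hmgcs1, Idi1, Sqle, Msmo1 and Sc5d lower and Abcg1 higher, beside 3.27% of 10081 genes (1.24% lower and 2.03% higher). The median over the 18 enzymes was -0.75 in that fit, against -0.03 over all genes.

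In a limma-voom fit on sums per mouse and cluster, with cluster as a term, 5 genes were called, beside 2.76% of 11068 genes (0.813% lower and 1.94% higher). This fit was added after the data had been seen. The correlation between sums of the same mouse, taken as equal for all genes, was 0.0277 in it. Such sums thus counted as nearly independent, and the intervals and p-values rest on several sums per mouse. Mvd, Idi1, Cyp51 and Msmo1 were lower, at -0.71 (95% interval -1.09 to -0.33, adjusted p = 0.0209), -0.84 (95% interval -1.21 to -0.46, adjusted p = 0.00343), -1.02 (95% interval -1.42 to -0.61, adjusted p = 0.000625) and -0.84 (95% interval -1.21 to -0.46, adjusted p = 0.00367). Nr1h3 was higher, at 1.17 (95% interval 0.59 to 1.75, adjusted p = 0.0111). All 18 synthesis enzymes were below 0 in it, with a median of -0.49, beside -0.04 over all genes. The other 6 genes called over all cells did not pass here. Sqle was at -0.84 (95% interval -1.33 to -0.34, adjusted p = 0.0508) and Hmgcs1 at -0.61 (95% interval -0.996 to -0.22, adjusted p = 0.0834), on the same side as before. Fdps was at -0.31 (95% interval -0.64 to 0.02, adjusted p = 0.445), Npc2 at 0.18 (95% interval 0.06 to 0.31, adjusted p = 0.125) and Abcg1 at 0.65 (95% interval 0.16 to 1.14, adjusted p = 0.193). Soat1 was at -0.02 (95% interval -0.32 to 0.28, adjusted p = 0.982) and so no longer above 0. Of the other pathway genes, Smpdl3a, an LXR target that encodes a phosphodiesterase, was the one called with cluster as a term, at -0.67 (95% interval -0.94 to -0.40, adjusted p = 0.00067). Over all cells it was not called and lay on the other side, at 0.34 ± 0.21 (adjusted p = 0.407), with overlapping groups. It was also lower in cKO mice in cluster 1, in the fit within clusters given next (-1.18 ± 0.28, adjusted p = 0.00689).

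Cells were then grouped into 9 clusters with the 35 genes and the other pathway genes left out. Clusters were named from markers fixed for each type, among their leading 10 genes. Cluster 2 (513 cells) was dendritic cell-like, led by Cd209a, Cd24a, Xcr1 and Flt3. Clusters 4 (431 cells) and 6 (287 cells) were macrophage-like, led among others by Fcrls and Pf4, cluster 5 (358 cells) was monocyte-like, with Chil3 and Ly6c2 among others, and clusters 8 and 9 were lymphoid-like and stromal-like. Clusters 1, 3 and 7 carried no marker of a named type among their leading genes and keep their numbers. Cluster 1 (667 cells) was led among others by Ccl24 and Ifit3, and cluster 3 (463 cells), of which 413 came from cKO mice, by Il1a and Acod1.

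Of the classes with 3 or more mice in each group, dendritic cell-like cells had the highest mean level of the synthesis arm. Summed over the 18 enzymes it was 1249 ± 141 CPM there in control mice (SD, n = 4) and 1095 ± 206 CPM in cKO mice (n = 3), from sums of at least 20 cells of a mouse and scaled to the total of each sum. In macrophage-like cells it was 887 ± 87.9 CPM in control mice and 391 ± 109 CPM in cKO mice (n = 4 and 4). These latter groups were far apart, at 777 to 991 against 277 to 511 CPM. The cKO sums there rest on 22 to 71 UMIs of the 18 enzymes. The class was mostly cluster 4 in control mice and mostly cluster 6, which was of low depth, in cKO mice. The part of this in the gap was not tested. In cluster 1 the sum was 814 ± 169 (n = 4) and 478 ± 87.7 CPM (n = 3), also without overlap, at 589 to 953 against 393 to 568 CPM. Monocyte-like cells had 697 ± 122 and 583 ± 87.8 CPM (n = 3 and 3), and lymphoid-like cells 761 ± 181 and 604 ± 207 CPM (n = 3 and 3), and in both the groups overlapped. In cluster 3 just 1 control mouse had enough cells, at 1222 CPM, beside 643 ± 99.9 CPM in 3 cKO mice.

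**Figure D3:**
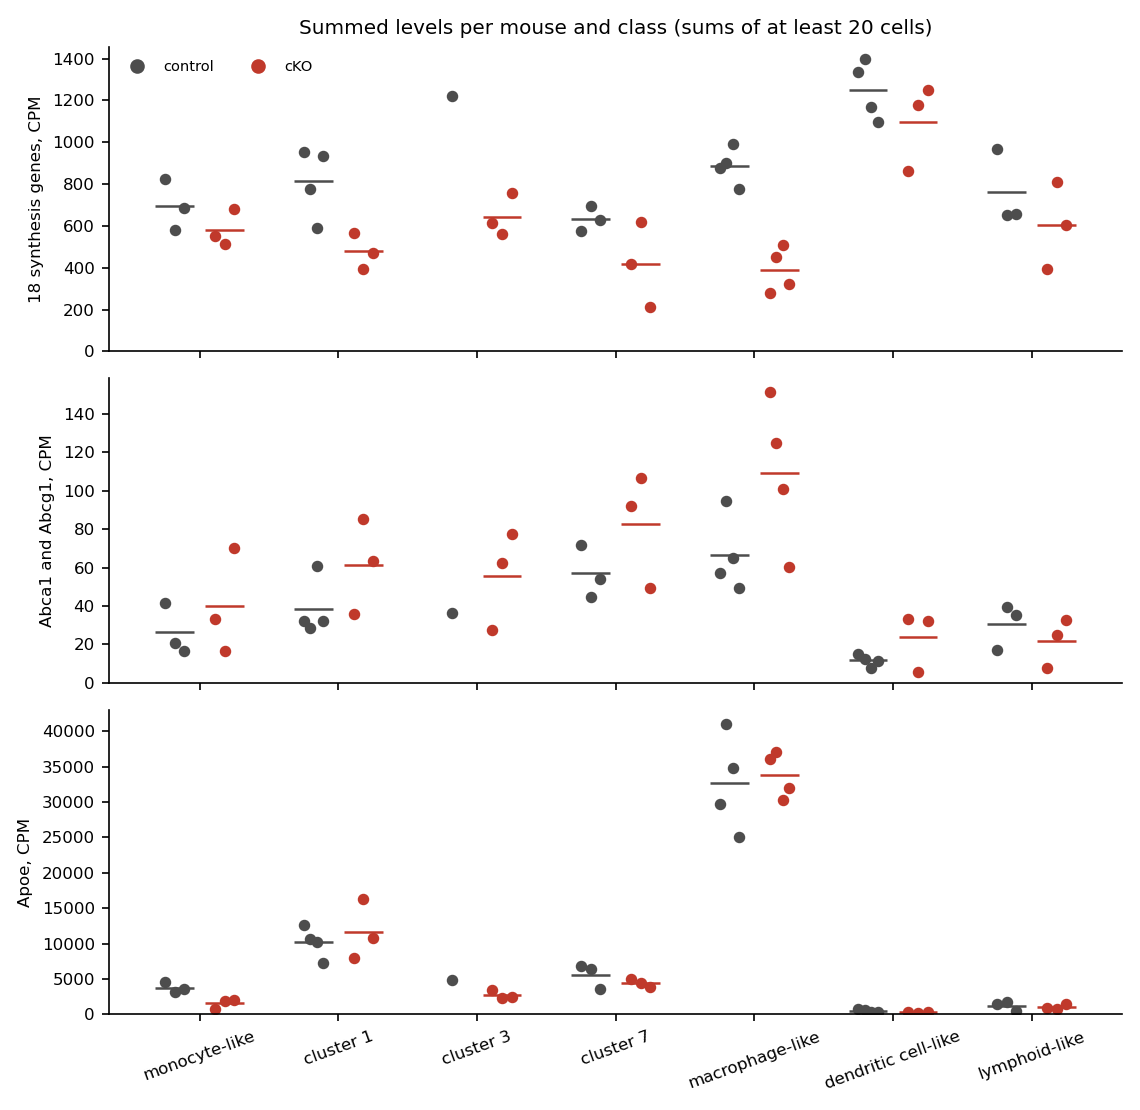
Summed CPM of the 18 synthesis enzymes and of the transporters Abca1 and Abcg1 in each class of cells, with a point for each mouse that had at least 20 cells of the class. The macrophage-like synthesis sums lie at 777 to 991 CPM in control mice and 277 to 511 CPM in cKO mice, while the monocyte-like and dendritic cell-like sums overlap. The macrophage-like class was mostly cluster 4 in control mice and mostly the low-depth cluster 6 in cKO mice.

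The efflux transporters showed another order. Abca1 and Abcg1 together were at 66.5 ± 19.9 CPM in control and 109 ± 38.7 CPM in cKO macrophage-like cells, with overlap. In dendritic cell-like cells they were at 11.8 ± 2.96 and 23.8 ± 15.8 CPM, and in monocyte-like cells at 26.5 ± 13.3 and 40.2 ± 27.6 CPM. Lymphoid-like cells went the other way, at 30.7 ± 11.8 CPM in control and 21.8 ± 12.9 CPM in cKO mice (n = 3 and 3), and the groups overlapped there too. Apoe was at 32661 ± 6825 CPM in control and 33856 ± 3217 CPM in cKO macrophage-like cells, which differ by less than the spread between mice. In monocyte-like cells it was lower in cKO mice without overlap, at 3776 ± 690 and 1550 ± 630 CPM (n = 3 and 3). It was not called there by edgeR's test within clusters (adjusted p = 0.778). Macrophage-like cells, with far more Apoe, were on average 27.7% of cells in control mice and 15.6% in cKO mice, with overlap. The part of free RNA from other cells in the monocyte-like gap was not tested. Dendritic cell-like cells had 521 ± 237 and 293 ± 90.9 CPM, with overlap. Cluster 1 went the other way, at 10236 ± 2221 and 11687 ± 4215 CPM, also with overlap.

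Within clusters, cKO and control mice were compared in a single edgeR model with a contrast for each of the 6 clusters that had 2 or more sums of each group. Msmo1 was lower and Nr1h3 higher in cluster 1, where 0.986% of 11060 genes were called (0.154% lower and 0.832% higher). Msmo1 was at 131, 85.00, 78.96 and 99.6 CPM in control mice 1 to 4 and 35.9, 42.6 and 48.1 CPM in cKO mice 6 to 8. The groups did not overlap, and the log2 fold change was -1.25 ± 0.32 (adjusted p = 0.0233). Nr1h3 stood at 12.4, 22.04, 36.4 and 53.3 CPM and 33.3, 128 and 94.7 CPM in the same mice. Its groups overlapped at cKO mouse 6, and the log2 fold change was 1.43 ± 0.39 (adjusted p = 0.0446). All 18 synthesis enzymes were below 0 in cluster 1, with a median of -0.77 against -0.03 over all genes. Cluster 1 was itself mixed, and split when the cells were divided into 12 clusters. The part led by Ccl24 and Il1r2 held 268 control and 79 cKO cells, and the part led by Ifit3 and Ifit3b held 172 and 148. The part of this makeup in the values of cluster 1 was not tested.

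No gene of the set was called in the other 5 clusters by edgeR's test, where 2 to 7 of the 35 had an unadjusted p below 0.05. In dendritic cell-like cells, 0.154% of genes were called and Cyp51 came nearest, with an adjusted p of 0.347. In the macrophage-like cluster 6, with 0.0995% called, the smallest adjusted p was 0.385, for Msmo1, and 6 of the 18 enzymes had an unadjusted p below 0.05. The median cell of cluster 6 held 0.244 times the UMIs of its own sample's median cell, and that of cluster 7 held 0.311 times. The depth was thus low in both clusters. In monocyte-like cells (0.0995% called), lymphoid-like cells (0.0542%) and cluster 7 (0%) the smallest adjusted p of a gene of the set was 0.778, 0.532 and 0.832. Clusters 3, 4 and 9 had too few sums to test. Hmgcs1, Mvd, Idi1, Cyp51, Msmo1 and Srebf2 were below 0 in each of the 6 clusters tested, which come from the same mice. They make up 17.1% of the 35 genes, beside 2.58% of all 11060 genes. In the clustering that left out genes called within clusters, Srebf2 was above 0 in 1 of 7 clusters and the other 5 were below 0 in all 7.

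A test of whether the cKO effect differed between clusters called none of the 35 genes and 0% of the 11060 genes tested. The smallest adjusted p was 1, and 4 genes of the set, Lss, Fdps, Nsdhl and Cyp51, had an unadjusted p below 0.05 in it. None of the 35 was called in any of the 14 alternatives, in which 0 to 43 of all genes were called (13 by DESeq2).

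The 2 calls within clusters depended on the mice. No gene was called without control mouse 1, cKO mouse 7 or cKO mouse 8, and Msmo1 alone without control mouse 2. Without cKO mouse 6, 4 genes were called, namely Mvd, Fdps, Cyp51 and Nr1h3, and Msmo1 was lost. Nr1h3 was lost without control mouse 3, and with sums of 10 cells or more. It was lost too when genes called within clusters were left out of the clustering, where Idi1, Fdps, Cyp51 and Msmo1 were called. DESeq2 called Fdps, Msmo1 and Apoe, and limma-voom, in which mouse was a random effect, called none. Msmo1 alone was called when each cluster was fitted by itself. With 7, 12 or graph clusters, tested as 4 classes named by markers that do not hold cluster 1, 2 to 3 genes were called, Msmo1 in each and Nr1h3 in none.

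**Figure D4:**
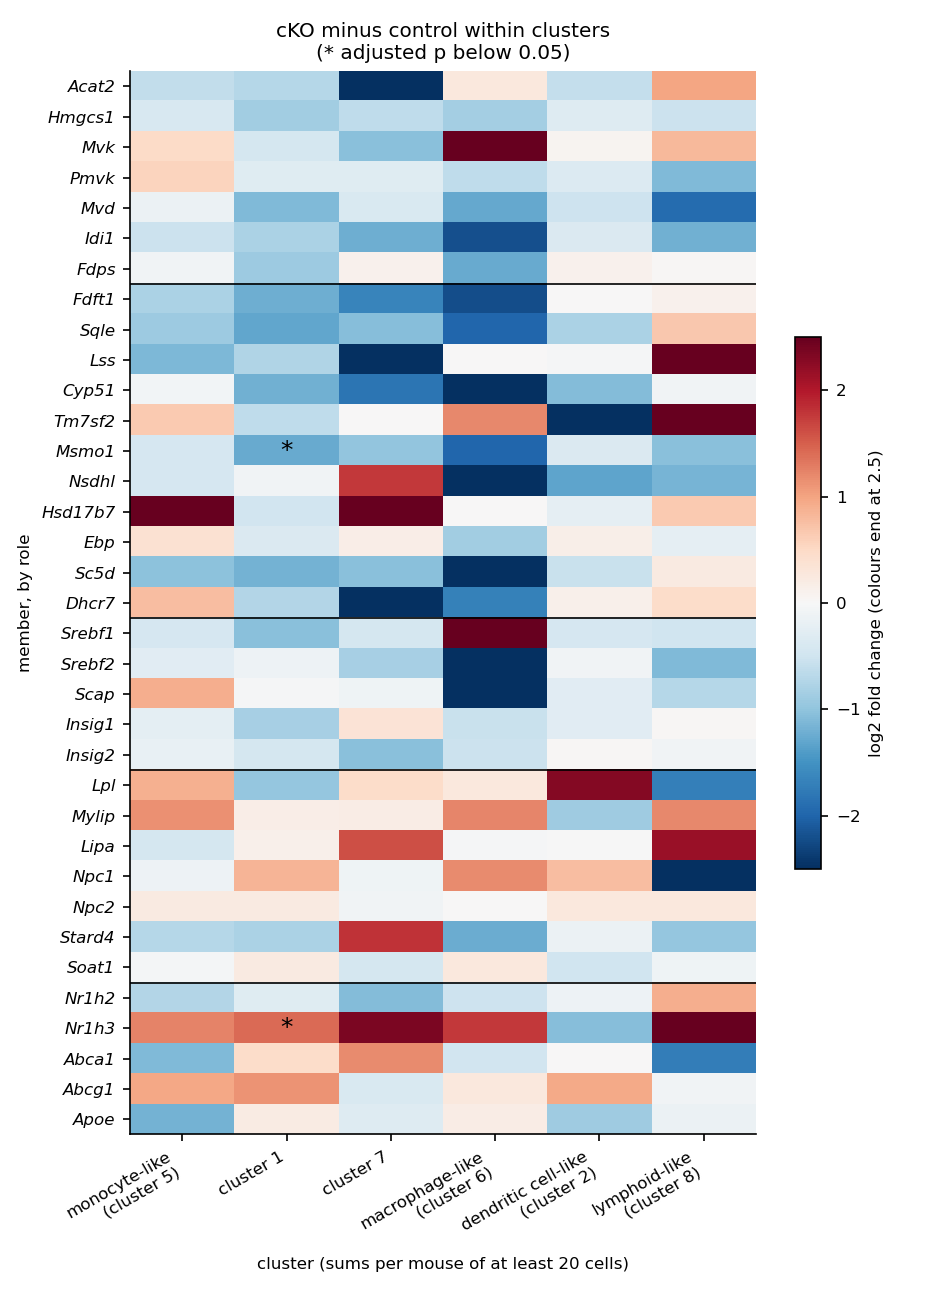
Log2 fold change of the 35 genes, cKO against control, in each of the 6 clusters tested, with the genes ordered by role and called values marked. Msmo1 (-1.25) and Nr1h3 (1.43) in cluster 1 are marked, and Hmgcs1, Mvd, Idi1, Cyp51, Msmo1 and Srebf2 are below 0 in each column.

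When the macrophage-like clusters 4 and 6 were taken as 1 class, a choice made after the data had been seen, Idi1, Cyp51 and Msmo1 were lower in cKO mice, beside 0.397% of 11094 genes called (0.135% lower). Idi1 was at 63.6, 85.7, 104 and 49.2 CPM in control mice and 12.6, 27.8, 28.8 and 7.52 CPM in cKO mice. The groups were apart, at a log2 fold change of -1.90 ± 0.46 (adjusted p = 0.0264). Cyp51 stood at 65.5, 54.8, 78.3 and 59.04 CPM against 25.2, 6.94, 7.20 and 15.05 CPM. No values overlapped, and the log2 fold change was -2.40 ± 0.50 (adjusted p = 0.00318). Msmo1 was at 122, 139, 169.5 and 113 CPM and 50.4, 48.6, 71.96 and 30.1 CPM, again apart (-1.46 ± 0.34, adjusted p = 0.0163). These cKO values rest on 1 to 10 UMIs each. The median was -1.42 over the 18 enzymes and -0.18 over all genes. The class was mostly cluster 4 in control mice (386 of its cells, with 153 in cluster 6) and mostly the low-depth cluster 6 in cKO mice (134, with 45 in cluster 4), and the part of this in the result was not tested.

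Last, the genes were compared between the named classes with the mouse as a term, so that each mouse served as its own reference. The classes were drawn from other genes of the same cells. Between macrophage-like and monocyte-like cells 8 of 35 genes differed, 6 higher and 2 lower in macrophage-like cells, beside 19.1% of 11113 genes (10.7% higher and 8.36% lower). Of the 18 synthesis enzymes 1 was called, Pmvk (log2 fold change 0.93 ± 0.25, adjusted p = 0.00209). The other 7 were genes of the LXR and efflux and of uptake, lysosomal release and esterification.

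Apoe was at 827 to 4552 (median 2604) CPM in the monocyte-like cells of 6 mice and 25078 to 40978 (median 33435) CPM in the macrophage-like cells of 8 mice. No values overlapped (3.77 ± 0.28 on the log2 scale, adjusted p = 1.92e-12). Abca1 was at 0 to 16.6 (median 1.40) CPM and 34.4 to 77.7 (median 45.1) CPM in the same order. It too was apart (3.57 ± 0.45, adjusted p = 4.75e-12). Nr1h3 was at 0 to 22.6 (median 9.55) and 0 to 139 (median 65.9) CPM, with overlap (2.73 ± 0.36, adjusted p = 8.77e-11). The overlap came from a macrophage-like sum of 20 cells with no UMI and from that of control mouse 2, with 194 cells and 22 UMIs. Lipa, which frees cholesterol from esters in the lysosome, and Mylip were higher as well, by 1.12 ± 0.28 and 1.66 ± 0.42 (adjusted p = 0.00153 and 0.00127).

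Npc2 and Soat1 went the other way. Npc2 was at 1798 to 2422 (median 1952) CPM in monocyte-like and 1043 to 1540 (median 1273) CPM in macrophage-like cells. The classes did not overlap (-0.56 ± 0.11, adjusted p = 2.39e-05). Soat1 was at 83.04 to 152 (median 113) and 25.2 to 125 (median 58.4) CPM, with overlap (-0.77 ± 0.22, adjusted p = 0.00371). Both genes were higher in the class whose share was larger in cKO mice, and both were called over all cells but not with cluster as a term. The part of cell makeup in these calls was not tested.

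Between dendritic cell-like and macrophage-like cells 17 of 35 genes differed, beside 33.2% of 11113 genes. Of these, 8 were higher in dendritic cell-like cells (16.8% of all genes) and 9 lower (16.4%). The arms parted: 7 of the 18 synthesis enzymes and Srebf2 were the 8 that were higher, and the 9 that were lower were 6 of 7 genes of uptake, lysosome, transport and esterification and 3 of 5 of the LXR and efflux.

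Fdps had the largest difference of the synthesis genes, at 247 to 357 (median 312) CPM in the dendritic cell-like cells of 7 mice and 57.6 to 150.4 (median 77.3) CPM in macrophage-like cells. No values overlapped (1.59 ± 0.22, adjusted p = 1.45e-07). Srebf2 was at 34.96 to 77.6 (median 47.2) and 0 to 39.1 (median 11.2) CPM, overlapping slightly (1.57 ± 0.26, adjusted p = 6.61e-08). Hmgcs1 (1.15 ± 0.20), Idi1 (1.03 ± 0.20), Sqle (0.95 ± 0.25), Cyp51 (0.90 ± 0.23), Nsdhl (0.83 ± 0.26) and Fdft1 (0.72 ± 0.25) were the others, with adjusted p from 4.06e-07 to 0.0149. Of the 6 synthesis genes that fell over all cells, 5 were higher in dendritic cell-like cells, which were scarcer in cKO mice, and Msmo1 was not called in this comparison. Macrophage-like cells had a lower mean share in cKO mice too, at 15.6 ± 6.06% of cells beside 27.7 ± 9.52% in control mice (SD), with overlap. The part of these shares in the fall over all cells was not tested.

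On the efflux side, Abca1 had no UMI in any of the 7 dendritic cell-like sums, which together held 506 cells, and 164 UMIs in the macrophage-like sums. With a count of 0 read as at most 3 UMIs over the class, it was at least 88.5-fold lower in dendritic cell-like cells. Apoe was at 205 to 761 (median 375) CPM there, beside the macrophage-like values above, without overlap (-6.34 ± 0.30, adjusted p = 3.71e-18). Lymphoid-like cells, which are not known to make Apoe, had 1229 ± 603 CPM in control mice, beside 521 ± 237 CPM in dendritic cell-like cells, and the part of free RNA in these levels was not tested. Nr1h3 was at 0 to 4.48 (median 2.63) CPM (-4.10 ± 0.35, adjusted p = 6e-22). Lpl (-2.56 ± 0.68), Mylip (-1.38 ± 0.30), Npc1 (-1.28 ± 0.36), Lipa (-1.10 ± 0.24), Npc2 (-0.96 ± 0.11) and Soat1 (-0.58 ± 0.21) were lower by smaller amounts, with adjusted p of at most 0.0225. Abcg1 was not called in either comparison of classes (-0.15 ± 0.33 and -0.52 ± 0.30), nor was Insig1 (-0.21 ± 0.27 and -0.08 ± 0.24).

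**Figure D5:**
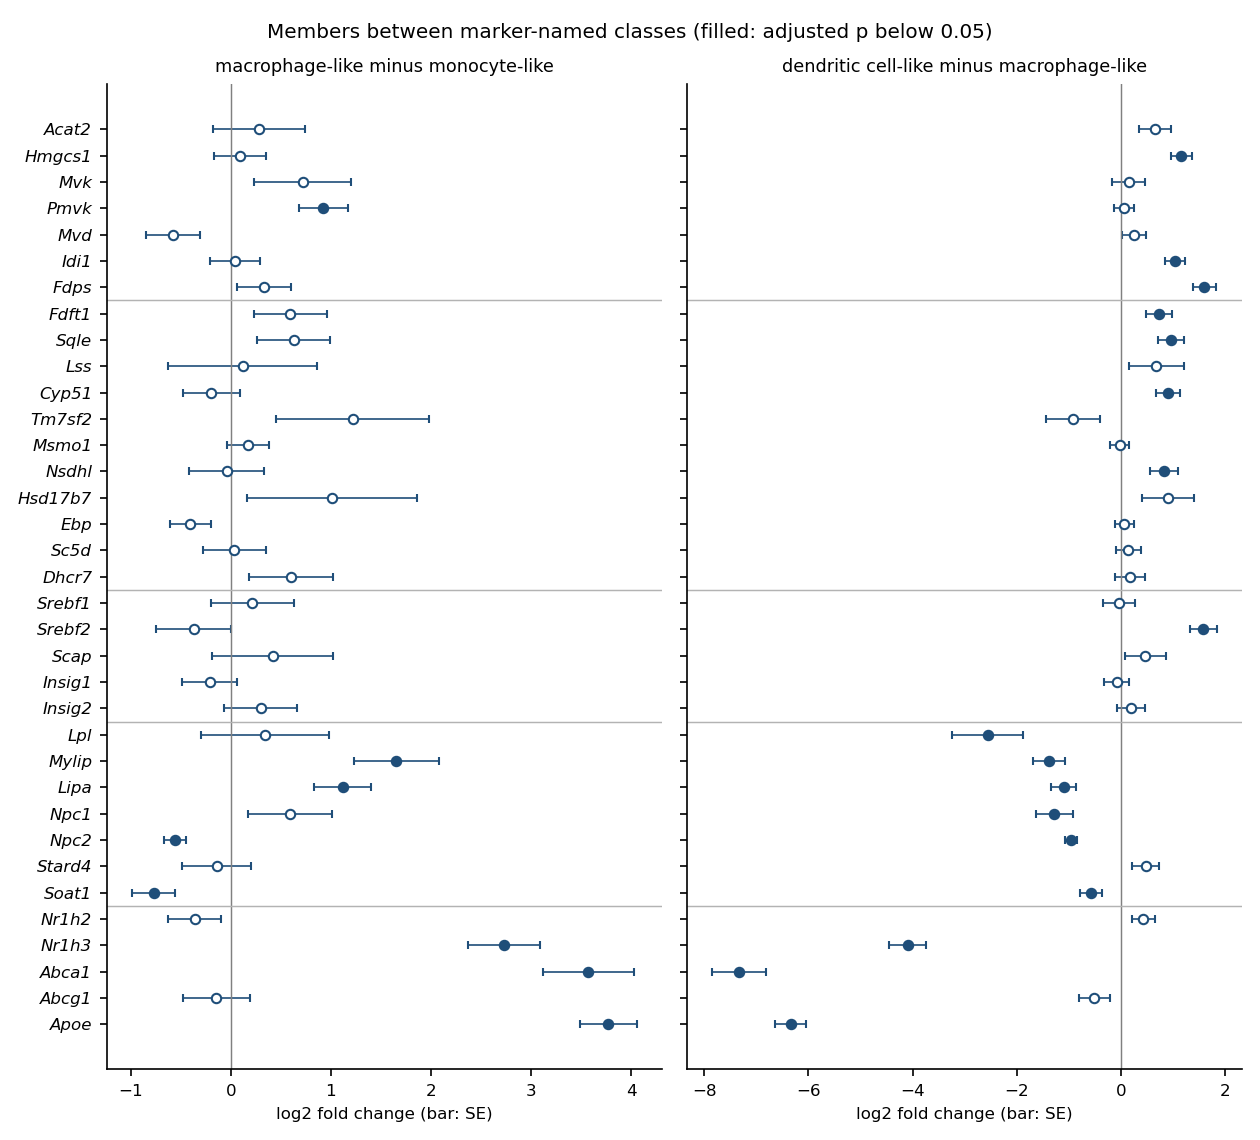
Log2 differences of the 35 genes between macrophage-like and monocyte-like cells and between dendritic cell-like and macrophage-like cells, grouped by role, with called genes filled. The synthesis enzymes lie near 0 in the first and mostly above 0 in the second, where Apoe (-6.34) and Nr1h3 (-4.10) lie far below 0.

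Of the 45 other pathway genes tested, 6 were higher and 6 lower in macrophage-like than in monocyte-like cells, beside 10.7% and 8.36% of all genes. In dendritic cell-like against macrophage-like cells, 6 were higher and 14 lower, beside 16.8% and 16.4% of all genes. In this second comparison, 4 of 11 fatty acid genes driven by SREBP were higher and 2 lower, with a median of 1.07.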

How the data were processed

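Single-cell RNA sequencing (10x Genomics, 3′ kit, version 2) was performed on sorted colonic lamina propria cells of 8 mice, with a well per mouse. The deposited values are whole-number UMI counts per gene and cell barcode, which the authors made with Cell Ranger and STAR 2.5.3a on mm10 with the EYFP sequence added, merged without down-sampling. The values are not normalised and precede the authors' own filters on cells and genes, but how the barcodes in the table were selected is not given in the sources used here. Every gene listed has a UMI, and no column lacked a sample. Of 5947 barcodes, 3213 were kept with the limits of the authors' methods (log10 UMIs of at least 2.8, log10 genes of at least 2.6, at most 5% mitochondrial UMIs, no hemoglobin UMI). Doublets called by Scrublet (scanpy 1.11.5; 15 control and 58 cKO cells) were kept. In all, 25 barcode sequences occurred in more than 1 well. Gene positions are those of the GRCm38 annotation.

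The 35 genes, the other gene lists and the markers were chosen with earlier results of these data known. All 35 are accounted for, values per mouse are given for genes past the threshold, and of the other pathway genes up to 4 past the threshold per comparison are named, with the exception of Msr1, Olr1, Fasn and Scd2, chosen after their values were seen. Cells were clustered without these genes (scran 1.30.0 size factors, denoised principal components, Ward clustering into 9). Tests used UMI counts added up within a mouse, or within each cluster of a mouse that held 20 cells or more, in edgeR 4.0.16 (TMM, glmQLFit, glmQLFTest) under R 4.3.3, for genes with more than 1 CPM in at least 3 sums and UMIs in at least 20 cells. P-values were adjusted by Benjamini-Hochberg over all genes tested at a threshold of 0.05. Over all cells they measure the spread between mice. In edgeR's fit within clusters there was no mouse term, so sums of the same mouse from several clusters were treated as independent. In limma-voom, sums of a mouse were linked by a low correlation (0.0443 within clusters, 0.0277 with cluster as a term), so they were treated as nearly independent. Between classes mouse was a term, and the p-values measure the spread left after differences between mice are removed. Alternatives included DESeq2 1.42.0, limma-voom (limma 3.58.1), other filters, other clusterings and leaving out each mouse. The fits were tested on simulated data. The simulated sums were drawn independently, without a mouse effect, so they could not test how the fits treat several sums of the same mouse. With TMM in place of plain CPM, the log2 ratio of a gene moved by a median of 0.0946.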

Additional observations from a re-analysis of the deposited data

Results flagged for a closer look

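In 5 of the 70 sets of 4 mice examined (35 genes in 2 groups), 1 mouse stood apart from the other 3 by a gap above Dixon's 95% critical value for the gap as a share of the range, where chance gives about 1 in 20 such sets. cKO mouse 5, with 83 cells, was the low mouse in 3 synthesis genes. Mvd was at 18.38 normalised CPM in it, and at 32.98 to 35.68 CPM in the other cKO mice. Fdft1 was at 10.21 CPM, beside 24.07 to 25.87 CPM. Hsd17b7 had 0 UMIs, which allows up to 6.13 CPM (3 UMIs, counting error only) and so overlaps the 4.011 to 4.743 CPM of the others. Lipa was at 25.44 CPM in cKO mouse 7, in which cluster 3 made up 50.8% of cells, beside 49.03 to 53.09 CPM in the other cKO mice. Nr1h2 was at 29 CPM in control mouse 3, with 85 cells, beside 52.69 to 53.27 CPM in the other control mice. None of these 5 genes was called over all cells, and the part of depth or cell makeup in these values was not tested.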

How the results depend on the processing

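The number of genes of the set called over all cells (10) ranged from 5 to 11 when 1 mouse was left out, and that of other pathway genes (2) from 0 to 5. Without doublet calls they were 6 and 0, without the dendritic cell-like, lymphoid-like and stromal-like clusters 6 and 1, with an absolute log2 fold change above 1 they were 4 and 0, and with cluster as a term, added after seeing the data, 5 and 1 (Smpdl3a). DESeq2 called 4 other pathway genes. Of the 10 genes, Soat1 alone changed sign, to -0.0191 on the log2 scale with cluster as a term, and the cause was not tested. Within clusters, 2 genes became 0 to 4 with 1 mouse left out, 1 with each cluster fitted alone, 0 with limma-voom and 4 when genes called within clusters were left out of the clustering, an alternative also added after seeing the data. Between classes, an absolute log2 fold change above 1 left 5 of 8 genes for macrophage-like against monocyte-like cells and 11 of 17 for dendritic cell-like against macrophage-like cells, and the other 19 alternatives of each stayed within 1.5 times the count, as did all 14 for the difference in effect between clusters, at 0. No paired analysis was possible because control and cKO mice carry no replicate number in common. Sums within clusters or classes held as few as 20 cells, and clusters 6 and 7 were of low depth.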
